A study of Mus musculus with 14 samples.

Results

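Livers of mice that had lost the ubiquitin ligase scaffold Cul3 in hepatocytes were compared with livers of control mice kept on the same control diet (CD). The comparison takes every gene of the deposited table in 6 of its 14 libraries: 3 labelled KO on CD (replicates 1, 2 and 3) and 3 labelled WT on CD (replicates 1, 3 and 4). The other 8 libraries were 4 of KO and 4 of WT mice on a Western diet (WD). They served to show which changes were also measured outside the CD libraries. All 4 groups were C57BL/6 mice with a floxed Cul3 gene, the WT mice included, and ate their diet for 13 weeks before a tail vein injection of adeno-associated virus (AAV) and for 5 weeks after it. KO mice received AAV-TBG-Cre and WT mice AAV-TBG-Null, and the TBG promoter drives Cre in hepatocytes, so Kupffer, endothelial and other liver cells of KO mice keep the gene. Neither age nor sex is stated in the labels. No label ties a library to its own animal, and p-values here therefore reflect library-to-library spread, part of which may be technical.

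Cullin 3 joins a RING protein to adaptors with a BTB domain, and each adaptor brings its own substrates to the ligase for ubiquitination. The adaptor KEAP1 brings NRF2, a transcription factor that binds antioxidant response elements near genes of glutathione conjugation, quinone reduction, NADPH supply and drug efflux. Other BTB adaptors handle substrates as different as kinases, small GTPase regulators and secretory coat proteins, so the ligase is known for far more in hepatocytes than redox control.

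Values are FPKM (fragments scaled by transcript length and library size) from 3' end tags, so they are compared between libraries for 1 gene and not between genes. Between 8879 and 9220 genes reached 1 FPKM per KO library on CD, against 8816 to 8941 per WT library. No read totals were given; the smallest step between low values would put the libraries near 3.60e+06 to 6.99e+06 reads in KO and 8.57e+06 to 1.06e+07 in WT if it is that of 1 read, a rough size only. Libraries were split into 2 sets by how often pairs shared their low value steps. In different sets, pairs shared 2.59% at the median (1.375% to 3.87%). Pairs inside set 1 shared 7.12% (3.03% to 12.14%) and pairs inside set 2 shared 4.75% (2.155% to 18.01%). A split made on this sharing favours such a difference, so these values do not show that 2 distinct sets exist. The ranges also overlap. A placeholder value of the gene Yam1, held by 8 libraries, would place KO on WD 3 in set 1 and KO on WD 4 in set 2. All 3 WT libraries on CD lie in set 1 and all 3 KO libraries on CD in set 2, so on CD genotype and library set cannot be told apart. On WD both genotypes have libraries of both sets (3 of set 1 and 1 of set 2 in KO, 2 and 2 in WT). A fit with the library set as a term therefore takes the set difference from the WD libraries and removes it from the CD comparison. Its log2 fold changes and counts, called set-adjusted below, stand beside the results. The SE on CD often widens in this fit, so a call can end although the effect does not shrink. Gstm5 moved from 1.54 ± 0.28 SE to 1.57 ± 0.39 SE and lost its call, whereas Mgst1 shrank from -1.83 to -0.70. A lost call alone therefore does not show that a change belonged to the set. Replicates are written as KO 1 or WT 3 and mean libraries on CD unless WD is named.

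Cul3 (ENSMUSG00000004364, chromosome 1, 80264923 to 80340480, minus strand) itself measured 18.3, 15.4 and 11.3 FPKM in KO against 23.9, 29.5 and 25.7 in WT. The groups did not overlap, yet the difference missed the threshold (log2 fold change -0.80 ± 0.34 SE, adjusted p = 0.117 by limma), and the set-adjusted value was 0.01 (adjusted p = 0.997). On WD Cul3 measured 24.3, 26.6, 18.5 and 24.3 FPKM in KO against 12.3, 7.46, 25.9 and 17.97 in WT, overlapping groups with the opposite sign to CD (log2 fold change 0.65, adjusted p = 0.199). Which exons were floxed is not stated, and a 3' tag may fall beyond them, so the level is no check of the deletion.

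Of 10870 genes tested on log2(FPKM + 1), 1633 (15.0%) passed a limma adjusted p of 0.05 in KO against WT on CD. Rises outnumbered falls, with 1269 genes higher (11.7% of those tested) and 364 lower (3.35%). The median over all tested genes stood 0.18 higher in KO on the log2 scale, and after centring every library on its median the calls split into 713 higher and 585 lower (54.9% higher against 77.7%). The KO and WT libraries did not overlap for 4526 genes (41.6% of those tested), 26.7% higher and 14.9% lower. With the set-adjusted fit 126 genes (1.16%) passed, 102 higher (0.938%) and 24 lower (0.221%). Without 1 CD library the count was 996 (KO 1), 1251 (KO 2), 590 (KO 3), 883 (WT 1), 659 (WT 3) and 814 (WT 4). Without WT on WD 2, which shares the estimate of the spread, it was 2463.

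The Western diet libraries show how far these calls were shared. Both comparisons come from 1 fit and share 1 estimate of the spread per gene, so their calls are not fully independent. On WD 762 genes (7.01%) passed, 653 higher (6.01%) and 109 lower (1.0%). With the set as a term 842 genes passed on WD (7.75%, with 6.72% higher and 1.03% lower). In the set 1 libraries alone 152 of 10855 passed (1.40%, with 1.15% higher and 0.249% lower). Together 302 genes (2.78% of those tested) passed on both diets in the same direction, 262 higher (2.41%) and 40 lower (0.368%). After centring every library on its median the split was 227 higher and 230 lower on WD, and 115 higher and 54 lower on both diets. The count on WD was 448 without KO on WD 4, 487 without KO on WD 2 and 457 without WT on WD 1, and the count on both diets was 196 without WT 3. Of the genes higher in KO on CD, 20.6% were also called higher on WD and 78.8% had the same sign there, where 70.6% of all tested genes had a sign above 0. Of the genes lower in KO on CD, 10.99% were also called lower on WD and 31.6% had the same sign, against 29.3% of all tested genes with a sign below 0. Larger rises were shared more often: 62 of 80 genes that rose by 2 or more on the log2 scale also rose on WD, against 27 of 130 that fell by as much. In total 15 genes were called in opposite directions on the diets, 14 of them lower in KO on CD and higher in KO on WD. Among the 310 genes lower in KO on CD and not called on WD the median change was -1.50 on CD, -0.64 set-adjusted and 0.32 on WD. Processed and unprocessed pseudogenes together made up 20.97% of these 310 genes, against 8.90% of all tested genes. The 40 genes lower on both diets had medians of -3.00, -2.66 set-adjusted and -2.27 on WD. The 262 genes higher on both diets had medians of 1.39, 1.24 set-adjusted and 1.21 on WD.

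**Figure D1:**
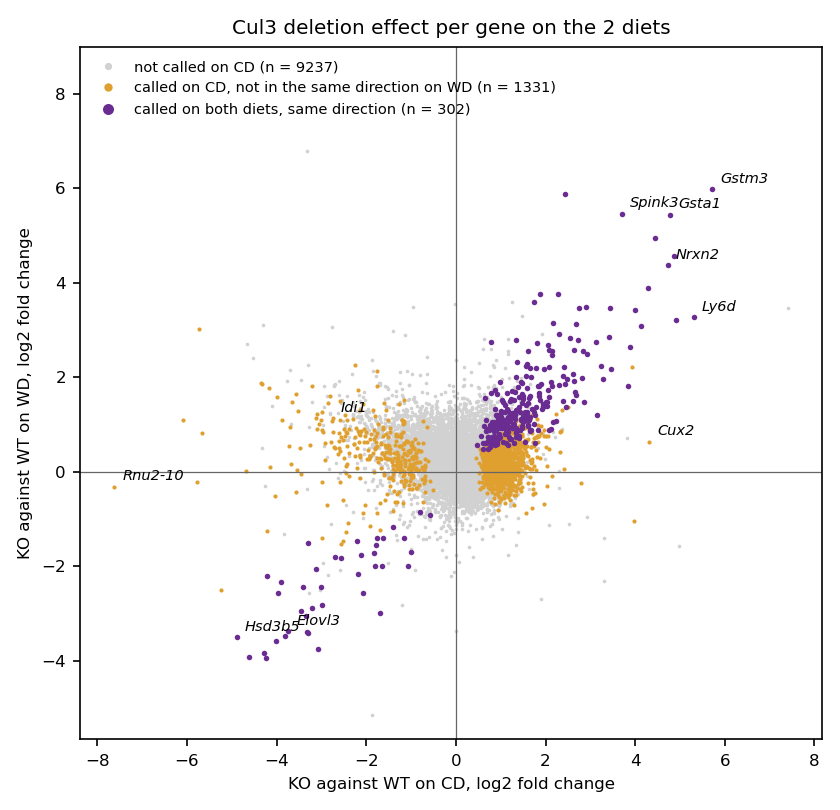
Each point is a gene, with its log2 fold change of KO against WT on CD on the x axis and on WD on the y axis, both from log2(FPKM + 1). Genes called on both diets (302, purple) lie in the upper right and lower left, and 249 of the 364 genes called lower on CD lie above 0 on WD.

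**Figure D2:**
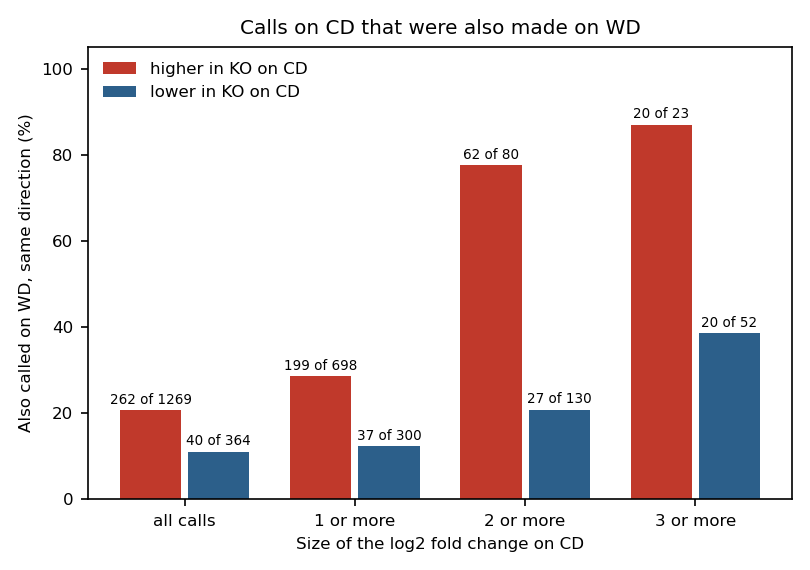
Bars give the percentage of genes called on CD that were also called on WD in the same direction, for genes higher (red) and lower (blue) in KO on CD, by the least size of the log2 fold change on CD. The share rises with size in both directions and is higher for rises (62 of 80 at 2 or more) than for falls (27 of 130).

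The genes named below come from 3 kinds of choice. They are the largest changes that were also called on WD, and the members of each gene list with the smallest p on CD. The last kind holds the largest changes called on CD with an unadjusted limma p over 0.5 on WD. Such a p does not show an absence of change on WD. The first kind comprised 14 rises and 12 falls, and it used both comparisons, so being called on WD is no finding for these genes. All 26 kept their calls when any 1 library was left out, and 21 of them kept the call in the set-adjusted fit. Both fits reuse the CD values by which the genes were chosen, so the kept calls are no separate evidence. List counts are read against the 11.7% of all tested genes called higher and the 3.35% called lower.

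**Figure D3:**
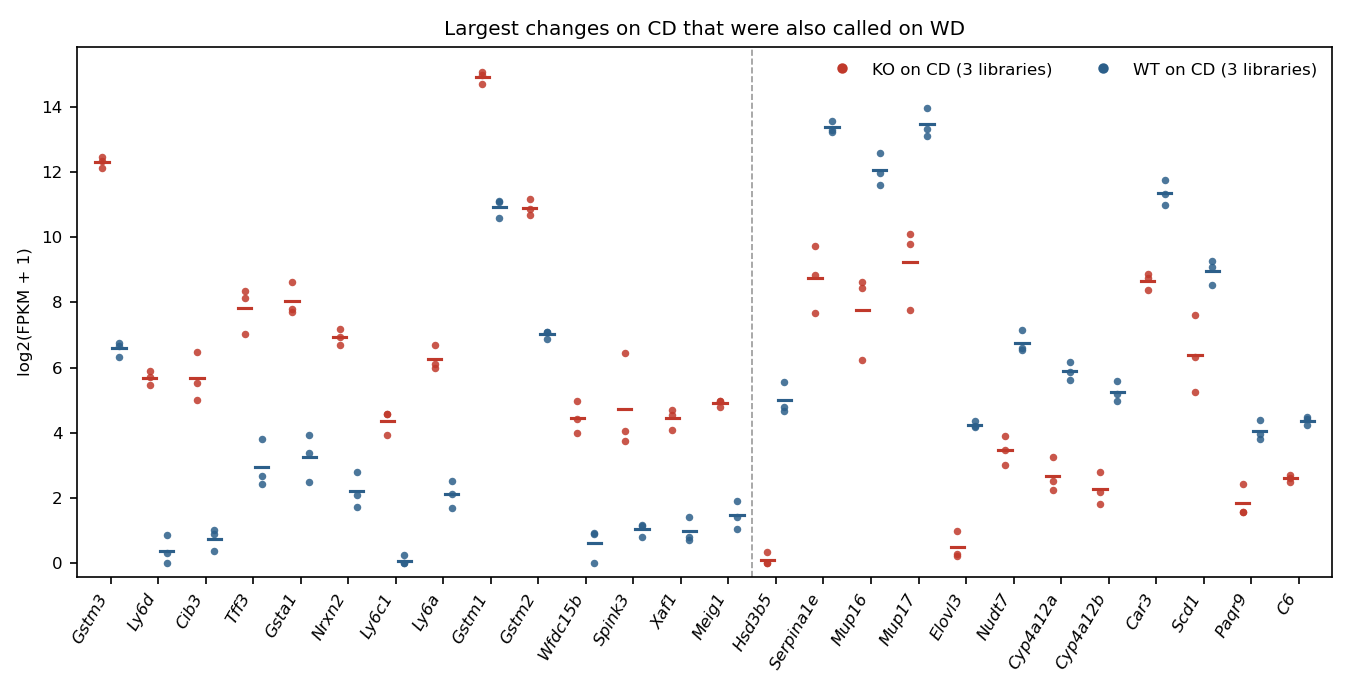
Points are log2(FPKM + 1) in each of 3 KO (red) and 3 WT (blue) libraries on CD, with a bar at the group mean, for the 14 largest rises and 12 largest falls on CD that were also called on WD. Groups that do not overlap were part of the choice of these 26 genes, and 41.6% of all tested genes share that.

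Glutathione transferases, which couple glutathione to electrophiles, were often higher: 13 of 22 tested members were higher in KO on CD and 1 was lower, with 6 and 0 set-adjusted. Their median log2 fold change was 1.08, against 0.18 over all genes. All 7 mu-class genes tested rose, and 4 of them were called set-adjusted: the adjusted p was 0.0835 for Gstm5, 0.0891 for Gstm6 and 0.387 for Gstm7, which was not called on WD (0.638). Gstm3 (ENSMUSG00000004038, chromosome 3, 107963696 to 107969283, minus strand) measured 5669, 4446 and 5144 FPKM in KO against 79.3, 108 and 101 in WT (log2 fold change 5.72 ± 0.45 SE, adjusted p = 8.08e-06). Its set-adjusted value was 6.07 (adjusted p = 0.000349). Gstm1 measured 31984, 26674 and 34447 FPKM in KO against 1525, 2149 and 2186 in WT (log2 fold change 4.0 ± 0.22 SE, adjusted p = 8.71e-07). Gstm2 measured 1867, 1624 and 2309 FPKM in KO against 116, 136 and 136 in WT, a log2 fold change of 3.88. Gstm4 measured 288, 279 and 242 FPKM in KO against 31.5, 51.9 and 55.9 in WT, a log2 fold change of 2.55. The KO libraries lie above the WT libraries in these 4 genes, which were chosen for their change on CD (26.7% of all tested genes do so). Reads of mu-class genes can be shared between near-identical copies, so the split between them is uncertain; the summed FPKM of the 7 genes was 40109, 33311 and 42459.6 FPKM in KO against 1907, 2597 and 2612 in WT, a log2 difference of 4.03.

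Of the 4 alpha-class genes tested 3 rose and none was called lower. Gsta1 measured 221, 208 and 391.8 FPKM in KO against 4.68, 14.2 and 9.48 in WT (log2 fold change 4.77 ± 0.45 SE, adjusted p = 3.7e-05). Set-adjusted, Gsta1 gave 4.84 (adjusted p = 0.00205). Gsta2 was also higher, at 559.8, 598 and 471 FPKM in KO against 48.4, 161 and 124 in WT, with a log2 fold change of 2.44 (adjusted p = 0.0351) on CD and 3.74 (adjusted p = 0.0523) set-adjusted. Gsta4 measured 9.45, 5.87 and 4.55 FPKM in KO against 2.601, 1.34 and 0.675 in WT, with a log2 fold change of 1.61 (adjusted p = 0.0323) and 1.82 (adjusted p = 0.214) set-adjusted. Gsta3 measured 451, 522 and 335 FPKM in KO against 767, 866 and 910.3 in WT and did not pass (adjusted p = 0.0625). The sum of the 4 alpha-class genes differed by 0.38 on the log2 scale on CD, against 1.97 on WD. The 1 called fall in the list was the microsomal Mgst1, at 209, 298 and 174 FPKM in KO against 698, 799 and 884 in WT (log2 fold change -1.83, adjusted p = 0.0157), and this call ended set-adjusted (adjusted p = 0.443). Without KO 3, WT 3 or WT 4 no member of the list was lower, and without WT on WD 2 there were 2. Gsta2, Gsta3, Gsta4 and Mgst1 were singled out after their values were seen.

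**Figure D4:**
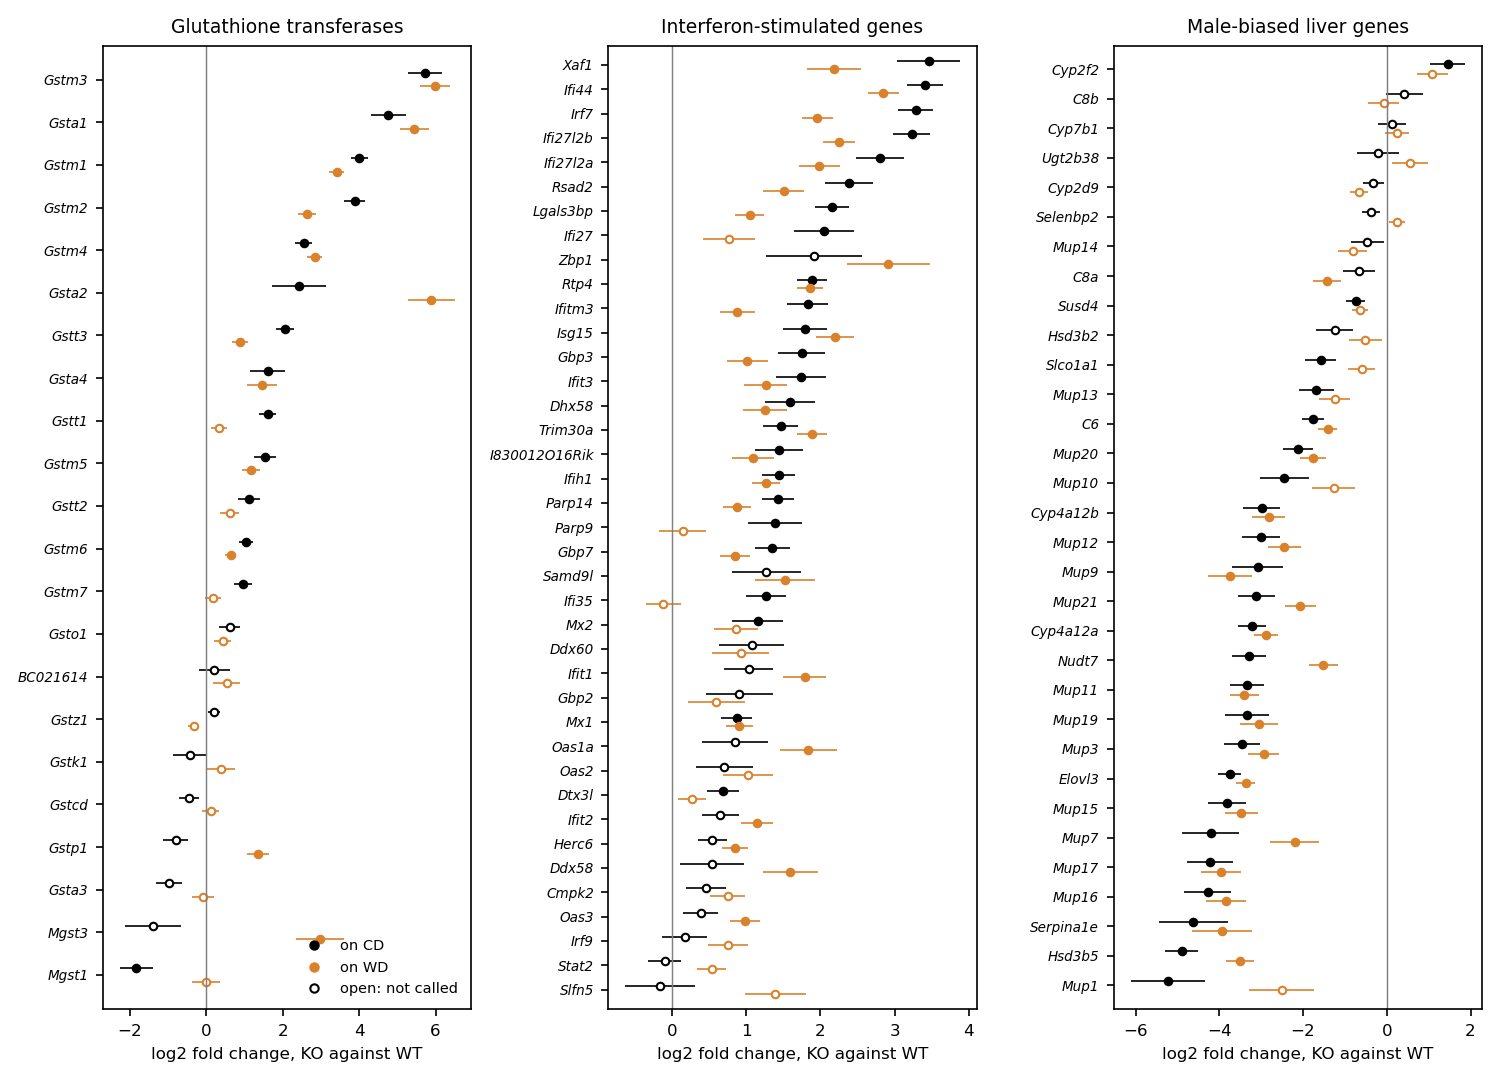
Log2 fold changes of KO against WT with SE bars for every tested glutathione transferase (22), for the tested interferon-stimulated genes except 1 that is not reported here, and for every tested male-biased liver gene (32), on CD (black) and WD (orange). Filled points passed an adjusted p of 0.05, and open points did not.

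Upstream letters are shown for 3 detoxification genes that rose on CD and hold the core of the antioxidant response element. The core is TGACNNNGC on either strand, here in the 250 bases before the RefSeq start. Other members that rose, such as Gstm7 and Ggct, also hold it there, and the 3 shown are examples. Windows of 250 bases before to 50 after each start were searched on both strands (RefSeq, build GRCm38.p6). Of 46 detoxification list members called higher, 42 had a window and 12 of these (28.6%) held the core, against 17.2% of the 7414 tested genes with a window, 13.99% of all 27025 genes in the table and 12.4% of its 32851 windows. The members were called on these data and the share is a description, not a test. Capitals mark the core and the stretch is written 5′ to 3′ on the gene's strand.
Abcc4, chr14:118676932-118676984, minus strand: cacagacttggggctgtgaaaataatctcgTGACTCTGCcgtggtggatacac
Abcc4, chr14:118706220-118706274, minus strand: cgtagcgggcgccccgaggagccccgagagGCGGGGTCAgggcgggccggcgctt
Gstm5, chr3:107895782-107895850, plus strand: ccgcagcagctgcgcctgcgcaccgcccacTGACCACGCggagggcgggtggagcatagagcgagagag
Slc35d1, chr4:103215239-103215307, minus strand: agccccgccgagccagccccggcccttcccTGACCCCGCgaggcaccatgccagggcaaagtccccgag
Abcc4 appears with a match before each of 2 annotated starts. Gstm5, a mu-class gene, measured 3.22, 1.95 and 5.32 FPKM in KO against 0.582, 0.511 and 0.3396 in WT (log2 fold change 1.54 ± 0.28 SE, adjusted p = 0.00455). Set-adjusted, Gstm5 gave 1.57 (adjusted p = 0.0835).

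Genes that make or recycle glutathione had 4 of 13 tested members higher and 1 lower in KO on CD, and none passed set-adjusted. Gpx2, a glutathione peroxidase, measured 5.07, 3.01 and 5.44 FPKM in KO and was listed at 0 in all 3 WT libraries (adjusted p = 0.00201). Gss, glutathione synthetase, measured 44.3, 49.7 and 53.6 FPKM in KO against 23.4, 20.5 and 22.1 in WT (log2 fold change 1.12 ± 0.21 SE, adjusted p = 0.00531). Set-adjusted, Gss gave 0.77 (adjusted p = 0.17). Chac2, an enzyme that degrades glutathione, went the other way, at 2.44, 6.95 and 4.73 FPKM in KO against 19.3, 23.97 and 25.2 in WT (log2 fold change -2.14, adjusted p = 0.00801). Ggct, a cyclotransferase of glutathione breakdown, measured 13.4, 19.3 and 17.6 FPKM in KO against 4.76, 5.32 and 6.73 in WT (adjusted p = 0.0245), and its call ended without KO on CD 2 or 3, or WT on CD 1 or 3 (adjusted p up to 0.0806). The count of members higher was 2 without KO on CD 3, or WT on CD 1 or 3. The count lower was 2 without KO on WD 2 or 3, or WT on WD 2 or 4; it was 3 without WT on CD 1.

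Quinone, thioredoxin and peroxide defence had 7 of 20 tested members higher and none lower, with 2 set-adjusted. Nqo1, the quinone reductase often used as an NRF2 readout, measured 24.6, 29.5 and 17.4 FPKM in KO against 3.38, 6.21 and 4.15 in WT (log2 fold change 2.16 ± 0.30 SE, adjusted p = 0.000858). Set-adjusted, Nqo1 gave 2.39 (adjusted p = 0.0139). Blvrb, biliverdin reductase B, measured 353, 400.3 and 435 FPKM in KO against 78.3, 102 and 104 in WT (log2 fold change 2.06 ± 0.20 SE, adjusted p = 4.91e-05). Set-adjusted, Blvrb gave 1.78 (adjusted p = 0.00329). Srxn1, which restores oxidised peroxiredoxins, measured 9.61, 13.3 and 19.2 FPKM in KO against 3.09, 2.01 and 2.404 in WT, and its set-adjusted value was 1.41 (adjusted p = 0.137). Prdx5, a peroxiredoxin, measured 648, 634 and 605 FPKM in KO against 337, 315 and 324 in WT (adjusted p = 0.00813), with 0.18 (adjusted p = 0.539) on WD. The count of members higher was 4 without KO on CD 1 or 3, or WT on CD 3 or 4.

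Of 11 tested enzymes of the pentose phosphate pathway and NADPH supply 1 was called. It was Pgd, 6-phosphogluconate dehydrogenase, at 24.01, 20.3 and 25.3 FPKM in KO against 13.1, 8.39 and 10.7 in WT (log2 fold change 1.06 ± 0.23 SE, adjusted p = 0.0108), and without WT on CD 3 its adjusted p was 0.0503. The cytosolic isocitrate dehydrogenase gene Idh1 measured 116, 116 and 59.3 FPKM in KO against 202, 213 and 239 in WT and did not pass (adjusted p = 0.0568). The list's median was -0.32 on CD, -0.16 set-adjusted and 0.50 on WD.

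Glucuronidation, which attaches glucuronic acid to drugs and bilirubin, had 6 of 14 tested members higher and 1 lower, and none set-adjusted. Slc35d1, the carrier of UDP-glucuronic acid whose promoter stretch is printed above, measured 121, 129 and 159 FPKM in KO against 54.1, 56.9 and 73.6 in WT (log2 fold change 1.13 ± 0.18 SE, adjusted p = 0.00202). Set-adjusted, Slc35d1 gave 0.88 (adjusted p = 0.0819). The transferase Ugt2b36 measured 724, 632 and 577 FPKM in KO against 305, 338 and 363 in WT (log2 fold change 0.94 ± 0.17 SE, adjusted p = 0.00431). Set-adjusted, Ugt2b36 gave 0.71 (adjusted p = 0.129). Members of the Ugt2b cluster share sequence, and their summed FPKM over 7 genes was 1838, 1589 and 1329.6 FPKM in KO against 836, 939.9 and 1079 in WT. The count of members higher was 3 without KO on CD 1, or WT on CD 1 or 3.

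Enzymes for aldehydes, carbonyls and epoxides had 7 of 24 tested members higher and 3 lower, with 2 and 0 set-adjusted. Ephx1, microsomal epoxide hydrolase, measured 1100.4, 978 and 1004 FPKM in KO against 262, 298 and 301 in WT (log2 fold change 1.84 ± 0.26 SE, adjusted p = 0.000841). Set-adjusted, Ephx1 gave 1.33 (adjusted p = 0.0404). Cbr1, carbonyl reductase, measured 83.5, 80 and 55.3 FPKM in KO against 18.7, 21.2 and 19.8 in WT (log2 fold change 1.80 ± 0.28 SE, adjusted p = 0.00196). Set-adjusted, Cbr1 gave 2.16 (adjusted p = 0.0135). The aldo-keto reductase genes Akr1c19 (log2 fold change 1.39) and Akr1a1 (1.20) also rose, with set-adjusted p of 0.0774 and 0.154. The count higher was 4 without WT on CD 1, and the count lower was 0 without WT on CD 3 or 4; it was 1 without KO on CD 1 or 3; it was 5 without WT on WD 2.

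Efflux pumps of the hepatocyte membranes had 8 of 13 tested members higher and none lower, with 3 set-adjusted and 5 without WT on CD 3. Abcc4, which exports organic anions across the basolateral membrane, measured 8.66, 5.93 and 8.55 FPKM in KO against 0.183, 0.723 and 0.1104 in WT (log2 fold change 2.71 ± 0.22 SE, adjusted p = 1.06e-05). Set-adjusted, Abcc4 gave 2.88 (adjusted p = 0.000373). Abcc3, a second basolateral exporter, measured 34.2, 31.8 and 28.1 FPKM in KO against 8.88, 14.1 and 10.2 in WT (log2 fold change 1.44 ± 0.23 SE, adjusted p = 0.00201). Set-adjusted, Abcc3 gave 1.41 (adjusted p = 0.0517). Abcg5 and Abcg8, the partners of the canalicular sterol pump, also rose. Abcg5 measured 61.8, 63.3 and 76.9 FPKM in KO against 19.2, 19.3 and 22.9 in WT (log2 fold change 1.67 ± 0.19 SE, adjusted p = 0.000185). Set-adjusted, Abcg5 gave 1.38 (adjusted p = 0.0109). Abcg8 measured 16.4, 17.2 and 17.8 FPKM in KO against 4.63, 5.41 and 6.26 in WT. Set-adjusted, Abcg8 gave 1.10 (adjusted p = 0.0271). On WD the effect was 0.19 (adjusted p = 0.508) for Abcg5 and 0.35 (adjusted p = 0.244) for Abcg8. The difference between diets passed for Abcg5 (1.48 on the log2 scale, adjusted p = 0.0241) and not for Abcg8 (adjusted p = 0.0615). With the set as a term the difference for Abcg5 was 1.12 (adjusted p = 0.527).

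Cytochrome P450 genes of families 1 to 3 had 14 of 35 tested members higher and 2 lower in KO on CD, with 3 and 1 set-adjusted. Cyp2a5, a coumarin hydroxylase, measured 2797, 2988 and 4412 FPKM in KO against 529, 919 and 669 in WT (log2 fold change 2.27 ± 0.38 SE, adjusted p = 0.00277). Set-adjusted, Cyp2a5 gave 3.00 (adjusted p = 0.00445). Its near-identical partner Cyp2a4 shares its reads, and the sum of both genes was 2809, 2999 and 4433 FPKM in KO against 531, 923 and 673 in WT. Cyp1a2 measured 3949, 2762 and 3683 FPKM in KO against 1189, 1011 and 1185 in WT. Set-adjusted, Cyp1a2 gave 1.10 (adjusted p = 0.141). Cyp2c70, which makes the muricholic acids of mouse bile, measured 1272, 1185 and 843 FPKM in KO against 447, 336 and 385 in WT. Set-adjusted, Cyp2c70 gave 1.05 (adjusted p = 0.0991). Cyp2c55 measured 3.82, 2.49 and 3.91 FPKM in KO against 0.307, 0.538 and 0.598 in WT (log2 fold change 1.56 ± 0.22 SE, adjusted p = 0.000979). Set-adjusted, Cyp2c55 gave 1.41 (adjusted p = 0.0433). The count of members higher was 9 without WT on CD 3, and the count lower was 0 without KO on CD 1 or 3, or WT on CD 3 or 4; it was 1 without KO on CD 2.

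Interferon-stimulated genes, which cells switch on in response to interferons through interferon regulatory factors and related proteins, had 25 of 40 tested members higher in KO on CD and none lower, with 11 set-adjusted. The list's median log2 fold change was 1.37 on CD, 1.25 set-adjusted and 1.12 on WD, where 28 members were higher. Ifi44 measured 19.5, 18.6 and 23.2 FPKM in KO against 0.779, 0.789 and 1.55 in WT (log2 fold change 3.41 ± 0.24 SE, adjusted p = 4.53e-06). Set-adjusted, Ifi44 gave 3.19 (adjusted p = 0.000349). Irf7, the interferon regulatory factor that amplifies the response, measured 37.6, 44.1 and 57.2 FPKM in KO against 3.86, 2.86 and 4.87 in WT (log2 fold change 3.28 ± 0.24 SE, adjusted p = 4.53e-06). Set-adjusted, Irf7 gave 2.89 (adjusted p = 0.000349). Ifi27l2b measured 51.1, 73.3 and 49.4 FPKM in KO against 7.01, 4.28 and 4.61 in WT, a log2 fold change of 3.23. Xaf1, which binds the apoptosis inhibitor XIAP, measured 16.1, 25 and 22.3 FPKM in KO against 1.69, 0.649 and 0.767 in WT, a log2 fold change of 3.46. Lgals3bp, a secreted glycoprotein, measured 269.8, 255 and 193 FPKM in KO against 52.3, 46 and 58.9 in WT, a log2 fold change of 2.16. KO libraries lie above WT libraries in these 5 genes too, which were also chosen for their change on CD.

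Upstream stretches of 4 of the interferon-stimulated genes that rose are shown because they hold the core of the interferon-stimulated response element, GAAA and GAAA with any 2 bases between them on either strand, which 3.89% of the 7414 tested genes with a window and 3.44% of all windows in the table hold. Of the 25 members called higher 14 had a window, too few for a share, and 8 of these held the core. Capitals mark the core and, where matches overlap, all of them.
Rsad2, chr12:26456533-26456602, minus strand: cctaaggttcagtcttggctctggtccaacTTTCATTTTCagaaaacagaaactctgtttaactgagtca
Isg15, chr4:156200845-156200914, minus strand: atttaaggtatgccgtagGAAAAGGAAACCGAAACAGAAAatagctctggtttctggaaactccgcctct
Gbp3, chr3:142559975-142560043, plus strand: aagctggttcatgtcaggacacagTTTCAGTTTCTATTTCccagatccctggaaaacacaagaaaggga
Trim30a, chr7:104465194-104465259, minus strand: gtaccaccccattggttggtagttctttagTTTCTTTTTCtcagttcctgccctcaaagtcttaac
Rsad2, the antiviral protein viperin, measured 8.998, 11.4 and 24.7 FPKM in KO against 1.77, 2.07 and 1.64 in WT. Set-adjusted, Rsad2 gave 2.23 (adjusted p = 0.0271). Isg15, a ubiquitin-like modifier, measured 3.02, 5.06 and 3.48 FPKM in KO against 0.231, 0.271 and 0.671 in WT. Set-adjusted, Isg15 gave 1.95 (adjusted p = 0.036). Trim30a measured 9.15, 14.1 and 12 FPKM in KO against 2.72, 3.71 and 4.41 in WT. Set-adjusted, Trim30a gave 1.78 (adjusted p = 0.0128). Gbp3, a guanylate-binding protein, measured 2.66, 1.43 and 4.92 FPKM in KO against 0.225, 0.0492 and 0.0796 in WT, and its set-adjusted p was 0.134. These 4 genes were shown for their windows and not for the size of their change.

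Antigen presentation had 2 of 14 tested members higher and none lower, and none set-adjusted. They were immunoproteasome subunits: Psmb10 measured 53.4, 64.6 and 72.3 FPKM in KO against 17.1, 15.4 and 22.5 in WT (log2 fold change 1.74 ± 0.26 SE, adjusted p = 0.00153), with 1.21 (adjusted p = 0.0738) set-adjusted, and Psmb8 measured 3.79, 2.85 and 7.16 FPKM in KO against 1.09, 0.512 and 1.17 in WT. Set-adjusted, Psmb8 gave 1.13 (adjusted p = 0.219). On WD no member of the antigen presentation list was called higher and 1 was called lower. B2m, the light chain of class I molecules, measured 180.3, 287 and 82.4 FPKM in KO against 629, 698 and 712 in WT and did not pass (adjusted p = 0.0878), with 0.13 set-adjusted.

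Ly6 genes encode small lipid-anchored surface proteins, several of them known as lymphocyte or stem cell antigens. In KO on CD 5 of 7 tested members rose and none fell, with 4 set-adjusted and 5 on WD, and the count stayed at 5 without any 1 library. Ly6d measured 43.6, 51.4 and 58.4 FPKM in KO against 0.236, 0.832 and 0 in WT (log2 fold change 5.30 ± 0.52 SE, adjusted p = 5.9e-05). Set-adjusted, Ly6d gave 5.11 (adjusted p = 0.00428). Ly6a, known as Sca-1, measured 68.5, 62.02 and 101 FPKM in KO against 2.27, 3.38 and 4.79 in WT (log2 fold change 4.13 ± 0.33 SE, adjusted p = 8.3e-06). Set-adjusted, Ly6a gave 3.598 (adjusted p = 0.000533). Ly6c1 measured 14.5, 22.9 and 22.99 FPKM in KO against 0, 0 and 0.193 in WT, a log2 fold change of 4.29. Ly6e measured 159, 213 and 229.8 FPKM in KO against 70.5, 35.5 and 44.2 in WT, a log2 fold change of 2.02. Reads of Ly6c1 and Ly6c2 can be shared; Ly6a, Ly6c1 and Ly6c2 together summed to 83.95, 89.4 and 128 FPKM in KO against 2.27, 3.38 and 4.98 in WT.

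Since these were whole livers, the markers of other cells were measured beside the interferon and Ly6 genes, and in bulk RNA more cells of a type and more RNA per cell cannot be told apart. The 15 Kupffer cell and macrophage markers summed to 124, 122 and 281 FPKM in KO against 88.2, 63.03 and 98.3 in WT, with KO 3 above the others. Of 14 tested markers 2 were called higher, Folr2 and Clec4f, and on WD 5 were, these 2 among them. The median log2 fold change of the list was 0.74 on CD, 0.74 set-adjusted and 1.03 on WD. Over all genes these medians were 0.18, 0.20 and 0.23. The call of Folr2 ended without KO on CD 3, or WT on CD 3 or 4 (adjusted p up to 0.0832), and that of Clec4f without KO on CD 3, or WT on CD 1 or 3 (up to 0.115). Endothelial markers summed to 203, 174 and 260.0 FPKM in KO against 118, 122 and 171 in WT, with 2 of 13 tested called higher, Stab2 (log2 fold change 1.14 ± 0.24 SE, adjusted p = 0.00967) and Lyve1, whose call ended without KO on CD 2 or 3, or WT on CD 1 or 3, or KO on WD 1 or 4, or WT on WD 1 (adjusted p up to 0.17). No Kupffer or endothelial marker was called set-adjusted; Stab2 gave 0.95 (adjusted p = 0.204), and the adjusted p of Folr2, Clec4f and Lyve1 was 0.297, 0.27 and 0.165. Recruited macrophage markers summed to 10.6, 13.98 and 36.1 FPKM in KO against 9.87, 8.46 and 8.402 in WT. Of 6 tested 1 was called higher, on CD and also on WD, and none set-adjusted. Neutrophil markers summed to 18.03, 41.3 and 12.96 FPKM in KO against 4.57, 0.696 and 13.6 in WT and none of 3 tested passed, and 4 of 11 were at 0 in all CD libraries. Of 15 T and NK cell markers 7 were at 0 in all CD libraries, none of 2 tested passed. No stellate (12 of 17 tested), cholangiocyte (3 of 14), T or NK (2 of 15) or B cell marker (5 of 9) passed on CD. The markers that were not tested leave these cell types partly unmeasured. The part of other cell types in the interferon and Ly6 results was not tested. When any 1 library was left out the interferon list had 20 to 27 members higher and the Ly6 list 5.

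Genes that are higher in male than in female mouse liver were mostly lower in KO on CD: 23 of 32 tested members were lower and 1 was higher, with 13 and 0 set-adjusted. Their median log2 fold change was -3.00, -2.86 set-adjusted and -1.91 on WD. Pituitary growth hormone, through the transcription factor STAT5b, is known to keep this programme on in males. Hsd3b5, a steroid dehydrogenase, was listed at 0, 0.265 and 0 FPKM in KO against 46.6, 26.6 and 24.3 in WT (log2 fold change -4.89 ± 0.39 SE, adjusted p = 8.3e-06). Set-adjusted, Hsd3b5 gave -5.17 (adjusted p = 0.000359). Elovl3, an elongase of very long fatty acids, measured 0.227, 0.978 and 0.165 FPKM in KO against 17.02, 19.7 and 17.6 in WT (log2 fold change -3.75 ± 0.27 SE, adjusted p = 4.53e-06). Set-adjusted, Elovl3 gave -3.61 (adjusted p = 0.000349). Cyp4a12a, a fatty acid omega-hydroxylase, measured 4.78, 8.51 and 3.72 FPKM in KO against 57.5, 48.5 and 71.1 in WT (log2 fold change -3.22 ± 0.33 SE, adjusted p = 8.23e-05). Set-adjusted, Cyp4a12a gave -3.81 (adjusted p = 0.000349). Its near-copy Cyp4a12b measured 6.03, 3.55 and 2.51 FPKM in KO against 35.8, 30.8 and 47.2 in WT, and both together 10.8, 12.1 and 6.24 FPKM in KO against 93.3, 79.3 and 118 in WT. Nudt7, a peroxisomal coenzyme A hydrolase, measured 10.1, 14.1 and 7.15 FPKM in KO against 140.3, 91.6 and 97.03 in WT. Set-adjusted, Nudt7 gave -2.61 (adjusted p = 0.0239). Paqr9, a receptor-like membrane protein that is on no list here, measured 1.99, 4.38 and 1.96 FPKM in KO against 19.9, 13.1 and 14.7 in WT. Set-adjusted, Paqr9 gave -1.97 (adjusted p = 0.0463).

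Major urinary protein (Mup) genes, secreted pheromone carriers, made up 15 of the 32 male-biased genes tested and 14 of the 23 falls, and 9 of the 17 other members fell. Mup16 measured 345, 393 and 74.3 FPKM in KO against 6074, 3968 and 3116 in WT (log2 fold change -4.28 ± 0.56 SE, adjusted p = 0.000533). Mup17 measured 892, 1103 and 219 FPKM in KO against 15898, 10205 and 8783 in WT, a log2 fold change of -4.23. Mup15 measured 296, 309 and 109.6 FPKM in KO against 4143, 2961 and 2364 in WT, a log2 fold change of -3.82. These copies are nearly identical and their reads cannot be assigned with certainty, so they were also summed: over 21 Mup genes the sum was 27724, 30760.4 and 11681 FPKM in KO against 130485, 131244 and 103719 in WT, a log2 difference of -2.49. Serpina1e, an alpha-1-antitrypsin copy, measured 453, 840.0 and 205 FPKM in KO against 9650.0, 10028 and 11993 in WT (log2 fold change -4.62 ± 0.82 SE, adjusted p = 0.00422). Set-adjusted, Serpina1e gave -4.92 (adjusted p = 0.0646). The 6 Serpina1 genes summed to 31783, 30529 and 29601 FPKM in KO against 35169, 33894 and 38140.4 in WT, a log2 difference of -0.22. The 1 member called higher was Cyp2f2 (log2 fold change 1.45, adjusted p = 0.0364), and it was not called set-adjusted (adjusted p = 0.707). The count higher in the male-biased list was 0 without KO on CD 1 or 3, or WT on CD 1, 3 or 4.

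Genes higher in female liver had 5 of 18 tested members higher in KO on CD and 1 lower, with 4 and 0 set-adjusted. Cux2, a repressor of male-biased genes in female liver, measured 12.8, 17.8 and 29.5 FPKM in KO and was listed at 0, 0 and 0.0178 FPKM in WT (log2 fold change 4.31 ± 0.36 SE, adjusted p = 1.15e-05). Set-adjusted, Cux2 gave 4.04 (adjusted p = 0.00129). Cyp17a1, a steroid hydroxylase and lyase, measured 35.3, 35.1 and 32.3 FPKM in KO against 4.27, 1.88 and 3.17 in WT (log2 fold change 3.15 ± 0.38 SE, adjusted p = 0.000286). Set-adjusted, Cyp17a1 gave 3.88 (adjusted p = 0.000526). Slc16a5, a monocarboxylate carrier, measured 20.1, 22.02 and 37.9 FPKM in KO against 4.12, 4.77 and 6.82 in WT. Set-adjusted, Slc16a5 gave 2.02 (adjusted p = 0.0216). Atp6v0d2, a proton pump subunit, measured 4.199, 4.91 and 6.42 FPKM in KO against 0, 1.22 and 1.21 in WT. Set-adjusted, Atp6v0d2 gave 1.99 (adjusted p = 0.0577). The count lower was 0 without KO on CD 3, or WT on CD 3. In the growth hormone and STAT5 list, 2 of 17 tested members were higher and 1 lower. Beside Cux2 these were Prlr, the prolactin receptor, at 34.6, 44.9 and 56.3 FPKM in KO against 20.02, 23.3 and 13.6 in WT, and Ghr, the growth hormone receptor, at 103, 110.0 and 82.6 FPKM in KO against 240.5, 339 and 332 in WT. Neither was called set-adjusted (adjusted p = 0.423 for Prlr and 0.64 for Ghr), and the log2 fold change of Ghr on WD was -0.02 (adjusted p = 0.981). The call of Prlr ended without KO on CD 2 or 3, or WT on CD 1 or 4, and that of Ghr without KO on CD 1 or 3, or WT on CD 3 or 4 (adjusted p up to 0.0969 and 0.0926). Without WT on WD 2 the growth hormone list had 3 members lower. Jak2, the receptor's kinase, measured 2.28, 2.56 and 3.07 FPKM in KO against 1.73, 1.29 and 1.23 in WT (adjusted p = 0.0734).

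**Figure D5:**
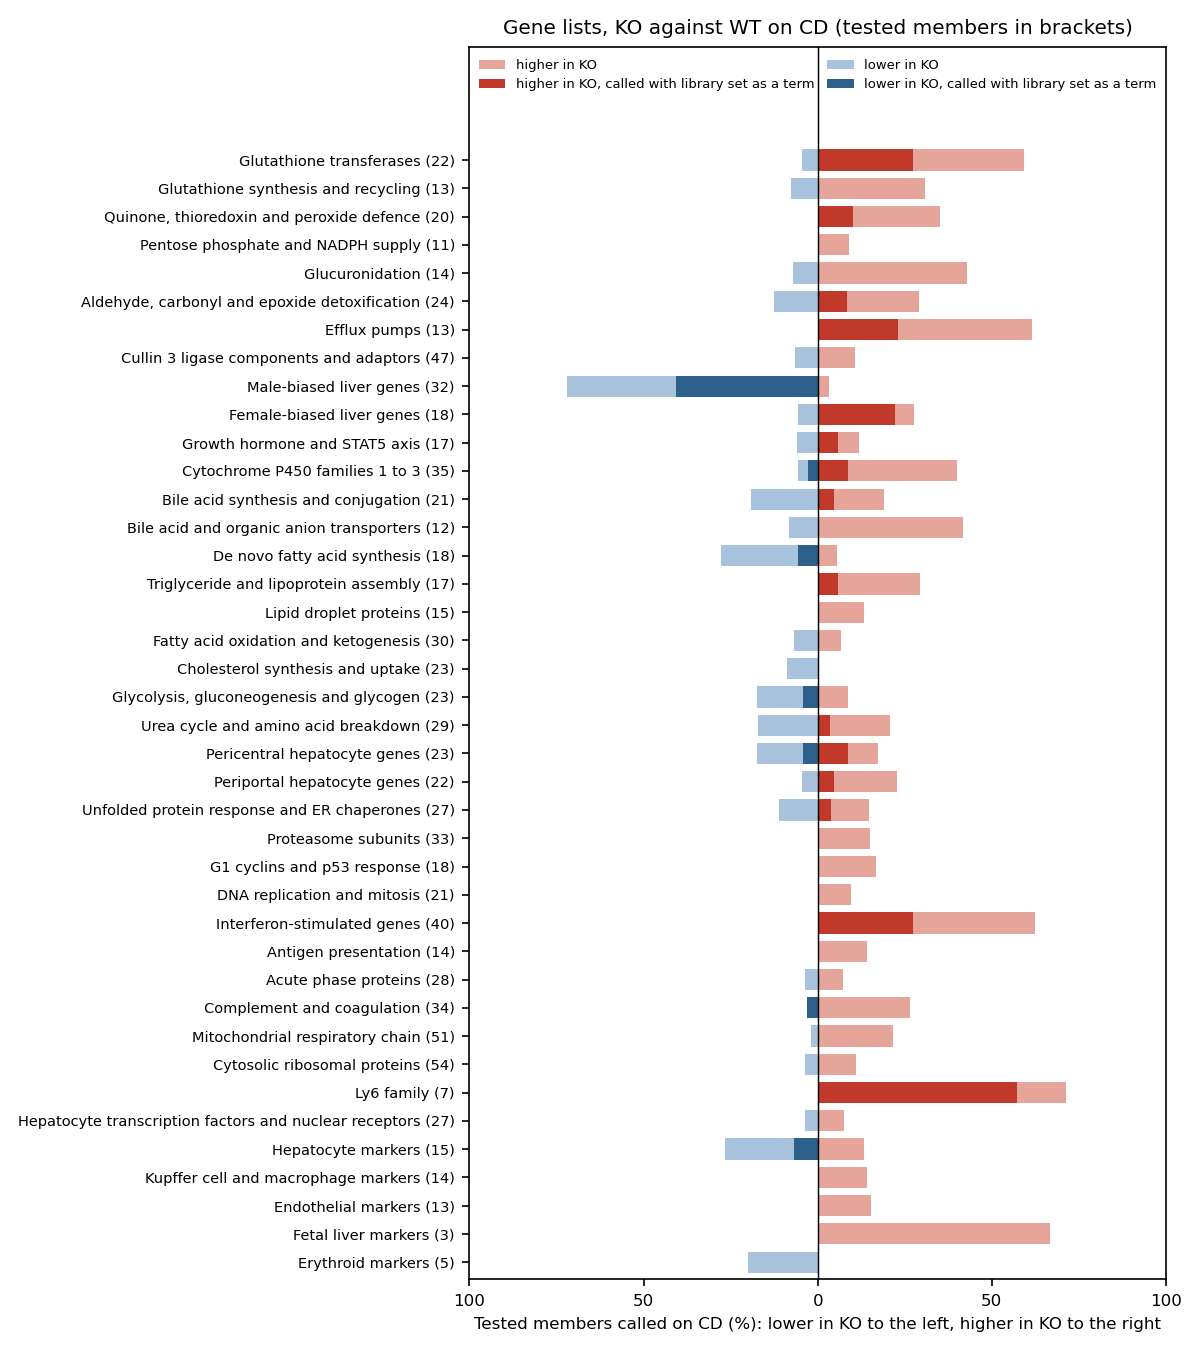
For the gene lists drawn, which leave out the acinar list with 1 tested member (1 of 1 higher), bars give the percentage of tested members called higher (right) or lower (left) in KO on CD, with the number tested in brackets. Dark parts give the calls made with the library set as a term. Among the lists drawn, male-biased genes reach furthest to the left (23 of 32), and Ly6 (5 of 7), fetal liver (2 of 3), interferon (25 of 40), efflux (8 of 13) and glutathione transferase genes (13 of 22) furthest to the right.

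Of 18 tested members of the fatty acid synthesis list 5 fell and 1 rose, with 1 fall and no rise set-adjusted. Scd1, the main liver stearoyl-CoA desaturase, measured 79.1, 37.1 and 195 FPKM in KO against 622, 369 and 547 in WT (log2 fold change -2.57 ± 0.49 SE, adjusted p = 0.00636). Set-adjusted, Scd1 gave -2.54 (adjusted p = 0.11). Pklr, liver pyruvate kinase, measured 0.224, 0.667 and 0.784 FPKM in KO against 6.29, 1.85 and 2.29 in WT, and its call ended without KO on CD 1, or WT on CD 1 (adjusted p up to 0.0691). The rise was Insig2, a sterol sensor of the endoplasmic reticulum, at 170.5, 111 and 142 FPKM in KO against 73.7, 53.5 and 43.4 in WT, whose call ended without KO on CD 1 or 3, or WT on CD 3 or 4 (adjusted p up to 0.0575). The count lower was 2 without KO on CD 1, or WT on CD 1; it was 3 without KO on CD 2, or WT on CD 3 or 4. Car3, a carbonic anhydrase abundant in liver and fat, measured 329.8, 462 and 429.8 FPKM in KO against 2022, 2549 and 3456 in WT (log2 fold change -2.69 ± 0.43 SE, adjusted p = 0.00201). Set-adjusted, Car3 gave -1.84 (adjusted p = 0.0961). It also stood among 7 adipocyte markers, of which 4 were at 0 in all CD libraries.

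Triglyceride and lipoprotein genes had 5 of 17 tested members higher and none lower, with 1 set-adjusted. Mogat2, a monoacylglycerol acyltransferase, measured 5.16, 10.5 and 6.68 FPKM in KO against 0.389, 0.548 and 0.0753 in WT (log2 fold change 2.62 ± 0.33 SE, adjusted p = 0.00036). Set-adjusted, Mogat2 gave 2.45 (adjusted p = 0.0202). Apoc3, an inhibitor of lipoprotein clearance, measured 11302, 10665 and 11869.8 FPKM in KO against 6808, 5427 and 5734 in WT (log2 fold change 0.92 ± 0.15 SE, adjusted p = 0.00247). Set-adjusted, Apoc3 gave 0.81 (adjusted p = 0.078). Apoa4 measured 4.43, 4.94 and 4.35 FPKM in KO against 0.4799, 0.675 and 1.64 in WT (log2 fold change 1.57 ± 0.29 SE, adjusted p = 0.00504) and differed between diets, with -0.88 on WD (difference 2.46, adjusted p = 0.0241, and 1.99 with an adjusted p of 0.527 with the set as a term). The count of members higher was 3 without KO on CD 2 or 3, or WT on CD 1 or 3. On lipid droplets, 2 of 15 tested proteins rose, among them Hsd17b13, at 351, 338 and 431 FPKM in KO against 178, 173 and 181 in WT (log2 fold change 1.06 ± 0.18 SE, adjusted p = 0.0031). Set-adjusted, Hsd17b13 gave 0.92 (adjusted p = 0.0887). The other was Pnpla2, the triglyceride lipase ATGL, whose call ended without KO on CD 1 or 3, or WT on CD 1 or 3 (adjusted p up to 0.0668).

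Cholesterol synthesis had none of 23 tested members higher and 2 lower, and none set-adjusted; the count higher was 3 without KO on CD 2, and the count lower was 1 without KO on CD 1 or 2, or WT on CD 3 or 4. Idi1, isopentenyl-diphosphate isomerase, measured 0.513, 0.0981 and 0.3804 FPKM in KO against 4.16, 9.95 and 11.4 in WT (log2 fold change -2.75 ± 0.41 SE, adjusted p = 0.00151). Set-adjusted, Idi1 gave -1.86 (adjusted p = 0.0765), and on WD 1.13 (adjusted p = 0.0781). The other was Fdps, at 0.402, 0.358 and 1.87 FPKM in KO against 1.79, 3.09 and 2.89 in WT, whose call ended without KO on CD 1 or 2, or WT on CD 3 or 4 (adjusted p up to 0.127). Cyp51 measured 74.99, 37.2 and 67.9 FPKM in KO against 29.4, 34.04 and 36.9 in WT and did not pass (adjusted p = 0.0689). Fatty acid oxidation had 2 of 30 tested members higher and 2 lower, and none passed set-adjusted. The count of oxidation genes higher was 0 without KO on CD 1 or 3, or WT on CD 1 or 3; it was 1 without WT on CD 4; it was 4 without WT on WD 2, and the count lower was 0 without KO on CD 1, 2 or 3, or WT on CD 1, 3 or 4; it was 1 without KO on WD 1, 2 or 4; it was 7 without WT on WD 2.

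Bile acid synthesis moved in both directions, with 4 of 21 tested members higher and 4 lower, 1 and 0 set-adjusted. Acnat2, a peroxisomal amino acid N-acyltransferase, measured 10.6, 13.6 and 10.2 FPKM in KO against 2.95, 2.67 and 2.28 in WT (log2 fold change 1.77 ± 0.19 SE, adjusted p = 0.000102). Set-adjusted, Acnat2 gave 1.84 (adjusted p = 0.00305). Acox2, which shortens the bile acid side chain, measured 192, 206 and 303 FPKM in KO against 77.1, 87.8 and 92.8 in WT (log2 fold change 1.41 ± 0.22 SE, adjusted p = 0.00161). Set-adjusted, Acox2 gave 1.32 (adjusted p = 0.0504). Cyp8b1, the sterol 12-alpha-hydroxylase, measured 351, 417 and 332 FPKM in KO against 172, 111 and 118 in WT, and its call ended without KO on CD 2 or 3, or WT on CD 3 or 4 (adjusted p up to 0.073). The count lower was 0 without KO on CD 3, or WT on CD 3; it was 1 without KO on CD 1, or WT on CD 1 or 4. Of 12 tested bile acid and organic anion transporters 5 were higher and 1 lower, none set-adjusted. Slco2b1 measured 64.2, 67.01 and 56.3 FPKM in KO against 29.6, 32.5 and 32.1 in WT (log2 fold change 0.97 ± 0.17 SE, adjusted p = 0.0039). Set-adjusted, Slco2b1 gave 0.79 (adjusted p = 0.108). The fall was Slco1a1, a male-biased carrier, at 56.1, 37.97 and 14.8 FPKM in KO against 99.8, 99.96 and 90.2 in WT (adjusted p = 0.0153), which was 0.0523 without WT on CD 3. The count of carriers higher was 1 without KO on CD 1 or 3, or WT on CD 3 or 4; it was 2 without WT on CD 1; it was 3 without KO on CD 2, or KO on WD 1 or 2.

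Of 29 tested genes of the urea cycle and amino acid breakdown 6 were higher and 5 lower, with 1 and 0 set-adjusted. The 1 was Sdsl, a serine dehydratase-like enzyme, at 58.8, 46.5 and 50.6 FPKM in KO against 13.01, 4.99 and 9.41 in WT (log2 fold change 2.46 ± 0.30 SE, adjusted p = 0.000316). Set-adjusted, Sdsl gave 2.10 (adjusted p = 0.0203). Cps1, which starts the urea cycle, measured 44.6, 44.3 and 33.5 FPKM in KO against 74.3, 84.1 and 86.6 in WT (log2 fold change -0.99 ± 0.21 SE, adjusted p = 0.0108), with -0.54 (adjusted p = 0.291) set-adjusted and 0.04 on WD. The count higher in this list was 1 without KO on CD 3, or WT on CD 1; it was 2 without WT on CD 3 or 4, and the count lower was 1 without KO on CD 3, or WT on CD 3 or 4; it was 3 without WT on CD 1. In the glycolysis, gluconeogenesis and glycogen list 4 of 23 tested members were lower and 2 higher, with 1 and 0 set-adjusted. Ldha, lactate dehydrogenase, measured 1.21, 1.41 and 2.37 FPKM in KO against 5.79, 12.4 and 4.801 in WT (log2 fold change -1.63 ± 0.35 SE, adjusted p = 0.0114). Set-adjusted, Ldha gave -2.11 (adjusted p = 0.0433). The count higher in the glucose list was 0 without KO on CD 3, or WT on CD 3 or 4; it was 1 without KO on CD 2, or WT on CD 1.

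Genes that mark zones of the liver lobule moved in both directions. Of 23 tested pericentral genes 4 were higher and 4 lower (2 and 1 set-adjusted), and of 22 tested periportal genes 5 were higher and 1 lower (1 and 0 set-adjusted). The pericentral rises included Gstm1, Cyp2a5 and Cyp1a2, whose values are given above, and the falls included Oat, ornithine aminotransferase, at 217, 214 and 119 FPKM in KO against 542, 740.1 and 740.1 in WT, whose call ended without KO on CD 3, or WT on CD 3 or 4 (adjusted p up to 0.0759). The pericentral count lower was 0 without KO on CD 3, or WT on CD 3 or 4; it was 1 without KO on CD 1. The periportal count higher was 3 without KO on CD 3, or WT on CD 1, and the count lower was 2 without WT on WD 2. Of 15 hepatocyte markers 2 were higher and 4 lower, and their summed FPKM was 11659.8, 11805 and 13084 FPKM in KO against 9340.4, 9167 and 8679.6 in WT. Cyp2e1, a pericentral P450, measured 78.6, 72.4 and 77.7 FPKM in KO against 136, 167 and 157 in WT, with -1.56 (adjusted p = 0.0124) set-adjusted and -1.69 (adjusted p = 0.000417) on WD; without KO on CD 1, 2 or 3, or WT on CD 3 or 4 its adjusted p on CD was up to 0.0791. The count of hepatocyte markers higher was 0 without KO on CD 1, 2 or 3, or WT on CD 1, 3 or 4, or KO on WD 1 or 4; it was 1 without KO on WD 2 or 3, or WT on WD 1, 3 or 4; it was 4 without WT on WD 2, and the count lower was 1 without KO on CD 1 or 3, or WT on CD 3 or 4; it was 2 without KO on CD 2, or WT on CD 1.

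In the unfolded protein response list 4 of 27 tested members rose and 3 fell, with 1 and 0 set-adjusted. Trib3, a pseudokinase induced by ATF4 and CHOP, measured 29.7, 33.2 and 28.8 FPKM in KO against 5.51, 3.78 and 3.12 in WT (log2 fold change 2.64 ± 0.35 SE, adjusted p = 0.000621). Set-adjusted, Trib3 gave 1.72 (adjusted p = 0.0182), and on WD 1.91 (adjusted p = 0.00211). Manf, an endoplasmic reticulum stress-responsive secreted factor, measured 38.8, 77.1 and 17.7 FPKM in KO against 213, 182 and 140.4 in WT (log2 fold change -2.19), and its call ended without KO on CD 3, or WT on CD 1 or 3 (adjusted p up to 0.0906). The count higher was 1 without KO on CD 3, or WT on CD 3; it was 2 without KO on CD 1, or WT on CD 4, and the count lower was 0 without KO on CD 3, or WT on CD 1 or 3; it was 1 without KO on CD 1; it was 5 without WT on WD 2. Of 33 tested proteasome subunits 5 rose and none fell, none set-adjusted and none called on WD. Psma7 measured 365, 394 and 377 FPKM in KO against 202, 242 and 241 in WT (log2 fold change 0.73 ± 0.16 SE, adjusted p = 0.0123). Set-adjusted, Psma7 gave 0.52 (adjusted p = 0.254). The count of subunits higher was 1 without KO on CD 3; it was 2 without KO on CD 1, or WT on CD 1, 3 or 4; it was 3 without KO on CD 2; it was 9 without WT on WD 2.

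Ccnd1, cyclin D1, measured 39.1, 41.1 and 27.3 FPKM in KO against 12.4, 7.41 and 6.74 in WT (log2 fold change 1.93 ± 0.40 SE, adjusted p = 0.0097), with 2.14 (adjusted p = 0.0951) set-adjusted, and was 1 of 3 genes higher among 18 tested in the G1 cyclin and p53 list. Mdm2, the ligase of p53, measured 23, 18.4 and 31.9 FPKM in KO against 9.76, 10.5 and 10.4 in WT (adjusted p = 0.0128), which was 0.0603 without KO on CD 3. Without KO 3 only 1 gene of this list was called. Of 21 tested DNA replication and mitosis genes 2 were higher on CD, against 8 on WD. Cdk1, the mitotic kinase, measured 5.601, 4.14 and 2.69 FPKM in KO against 1.41, 1.22 and 1.71 in WT (log2 fold change 1.04 ± 0.23 SE, adjusted p = 0.0112). Set-adjusted, Cdk1 gave 1.18 (adjusted p = 0.0933), and on WD 1.52 (adjusted p = 0.000374). The other was Nusap1, whose call ended without KO on CD 2 or 3, or WT on CD 1, 3 or 4 (adjusted p up to 0.128). Top2a, a topoisomerase of dividing cells, measured 1.25, 1.81 and 1.66 FPKM in KO against 0.6097, 0.113 and 0.714 in WT and did not pass (adjusted p = 0.075), with 1.80 (adjusted p = 0.00088) on WD.

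Of 51 tested respiratory chain subunits, which carry electrons and pump protons in mitochondria, 11 rose and 1 fell on CD, none passed set-adjusted, and on WD none rose and 1 fell. Ndufc1 measured 757, 693 and 894 FPKM in KO against 239, 277 and 432 in WT (log2 fold change 1.34 ± 0.22 SE, adjusted p = 0.00252). Set-adjusted, Ndufc1 gave 1.12 (adjusted p = 0.0899), and on WD 0.32 (adjusted p = 0.321). The difference between diets did not pass for Ndufc1 (adjusted p = 0.0735). The count higher was 6 without WT on CD 3; it was 7 without KO on CD 3, or WT on CD 1. The count of subunits lower was 0 without KO on CD 1, 2 or 3, or WT on CD 1, 3 or 4; it was 2 without KO on WD 3; it was 3 without WT on WD 4; it was 6 without WT on WD 2. The list's median log2 fold change was 0.01 on CD, below the 0.18 of all genes. Of 54 tested cytosolic ribosomal proteins 6 were higher and 2 lower, none set-adjusted. Rps20 measured 768, 886 and 1021 FPKM in KO against 354, 373 and 468 in WT (log2 fold change 1.16 ± 0.20 SE, adjusted p = 0.00347), and Rpl8 measured 3.85, 3.705 and 3.26 FPKM in KO against 8.68, 8.52 and 7.19 in WT (log2 fold change -0.99 ± 0.19 SE, adjusted p = 0.00593). Processed copies of ribosomal protein genes can take up their reads, so these levels are uncertain. The count of ribosomal proteins higher was 1 without KO on CD 3, or WT on CD 3; it was 2 without WT on CD 4; it was 3 without WT on CD 1, and the count lower was 1 without KO on CD 3, or WT on CD 3, or KO on WD 4; it was 6 without KO on WD 3; it was 9 without WT on WD 2.

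Complement and coagulation factors had 9 of 34 tested members higher and 1 lower. None of the rises passed set-adjusted or was called higher on WD, where 2 other members were higher and 3 were lower. The fall was C6, a male-biased part of the membrane attack complex, at 5.55, 5.19 and 4.59 FPKM in KO against 20.3, 17.8 and 21.5 in WT (log2 fold change -1.77 ± 0.26 SE, adjusted p = 0.00131). Set-adjusted, C6 gave -1.90 (adjusted p = 0.0215). F13b, a subunit of coagulation factor XIII, measured 24.03, 18.8 and 24.7 FPKM in KO against 9.06, 9.41 and 10.8 in WT (log2 fold change 1.12 ± 0.21 SE, adjusted p = 0.00531). Set-adjusted, F13b gave 0.73 (adjusted p = 0.175). C1ra measured 172, 197 and 142 FPKM in KO against 96.4, 76.4 and 82.7 in WT (log2 fold change 0.99 ± 0.21 SE, adjusted p = 0.0112). Set-adjusted, C1ra gave 0.69 (adjusted p = 0.259). The count higher was 3 without KO on CD 3; it was 4 without WT on CD 3; it was 5 without WT on CD 4, and without WT on WD 1 there were 2 lower. Acute phase proteins had 2 of 28 tested members higher and 1 lower, none set-adjusted. Il1rn, the interleukin 1 receptor antagonist, measured 10.4, 9.04 and 14.6 FPKM in KO against 4.04, 4.06 and 1.02 in WT, and its call ended without KO on CD 3, or WT on CD 4 (adjusted p up to 0.0817). The count of acute phase proteins higher was 0 without KO on CD 3, or WT on CD 4; it was 5 without WT on WD 2, and the count lower was 0 without KO on CD 1 or 3, or WT on CD 1 or 3.

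The cullin 3 ligase's own parts were not called in the set-adjusted fit: of 47 tested components and adaptors 5 were higher and 3 lower on CD, and 1 was higher on WD. Keap1, the adaptor for NRF2, measured 57.7, 51.6 and 57.2 FPKM in KO against 26.2, 25.4 and 27.5 in WT (log2 fold change 1.04 ± 0.21 SE, adjusted p = 0.00819). Set-adjusted, Keap1 gave 0.62 (adjusted p = 0.238), and on WD 0.27 (adjusted p = 0.384). Tnfaip1, an adaptor for RhoA, measured 37.9, 36.8 and 52.7 FPKM in KO against 18.5, 17.9 and 19.9 in WT (adjusted p = 0.0112), which was 0.054 without KO on CD 3. Btbd9 and Kctd9, further BTB proteins, had adjusted p of 0.0165 and 0.0202; these calls ended without KO on CD 3, or WT on CD 3, and without KO on CD 1 or 3, or WT on CD 1 or 3 (adjusted p up to 0.0781 and 0.08). The count higher was 1 without KO on CD 3; it was 3 without KO on CD 1, or WT on CD 1. The count lower was 0 without KO on CD 1 or 3, or WT on CD 3 or 4; it was 1 without WT on CD 1; it was 6 without WT on WD 2. Among 27 tested transcription factors and nuclear receptors of hepatocytes 2 were higher and 1 lower, none set-adjusted. Nr5a2, the receptor LRH-1, measured 36.5, 39.7 and 63.8 FPKM in KO against 20.9, 21.95 and 20.4 in WT (log2 fold change 1.07 ± 0.23 SE, adjusted p = 0.0108), with 0.05 (adjusted p = 0.897) on WD. Nr1h4, the bile acid receptor FXR, measured 43.7, 49.2 and 29.9 FPKM in KO against 80.8, 75.2 and 74.2 in WT, and its call ended without KO on CD 1 or 3, or WT on CD 1, 3 or 4 (adjusted p up to 0.123). The count of receptors and factors higher was 1 without KO on CD 1, 2 or 3, or WT on CD 1 or 3; it was 4 without WT on WD 2.

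Some of the largest rises belonged to no list described above. Tff3, a trefoil peptide of mucus-secreting epithelia, measured 129.7, 278 and 323 FPKM in KO against 13.03, 4.36 and 5.41 in WT (log2 fold change 4.86 ± 0.56 SE, adjusted p = 0.000204). Set-adjusted, Tff3 gave 4.31 (adjusted p = 0.0159). Nrxn2, a neurexin of nerve terminals, measured 103, 122 and 145 FPKM in KO against 6.05, 3.29 and 2.33 in WT (log2 fold change 4.73 ± 0.32 SE, adjusted p = 4.53e-06). Set-adjusted, Nrxn2 gave 4.88 (adjusted p = 0.000349). Cib3, of a calcium-binding protein family, measured 44.8, 31.2 and 88.5 FPKM in KO against 0.293, 1.03 and 0.8503 in WT (log2 fold change 4.91 ± 0.43 SE, adjusted p = 1.86e-05). Set-adjusted, Cib3 gave 4.24 (adjusted p = 0.0017). Wfdc15b, of the whey acidic protein family, measured 14.97, 20.5 and 30.5 FPKM in KO against 0.917, 0 and 0.887 in WT. Set-adjusted, Wfdc15b gave 4.07 (adjusted p = 0.00205). Meig1, known from spermatids, measured 26.97, 30.4 and 30.8 FPKM in KO against 1.09, 1.699 and 2.81 in WT. Set-adjusted, Meig1 gave 2.78 (adjusted p = 0.173). Spink3, a trypsin inhibitor of the pancreas and of fetal liver, measured 12.4, 15.6 and 86.1 FPKM in KO against 1.28, 0.745 and 1.23 in WT, with KO 3 far above KO 1 and KO 2, and with 3.31 (adjusted p = 0.086) set-adjusted. Pancreatic acinar markers were near 0: 9 of 11 were at 0 in all CD libraries, and the list summed to 4.73, 4.98 and 6.14 FPKM in KO against 1.03, 1.44 and 0.837 in WT. The 1 tested, Cela2a, was called higher, and the count was 0 without KO on CD 1, 2 or 3, or WT on CD 1, 3 or 4, or KO on WD 1 or 4, or WT on WD 3. Of 3 tested fetal liver markers Spink3 and the imprinted gene Peg3 rose, the second at 2.39, 2.23 and 2.89 FPKM in KO against 0.612, 0.657 and 0.664 in WT (log2 fold change 1.09 ± 0.20 SE, adjusted p = 0.00545), and Igf2 measured 1.72, 1.37 and 0.241 FPKM in KO against 0.531, 0.435 and 0.206 in WT (adjusted p = 0.173). No fetal liver marker was called set-adjusted, and Peg3 gave 1.15 (adjusted p = 0.078).

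Erythroid markers summed to 341, 2118 and 679 FPKM in KO against 769, 649.9 and 834 in WT, with KO 2 far above the others, through the beta-globin genes (324, 2070.3 and 652 FPKM in KO against 654, 492 and 691 in WT). Alas2, the erythroid enzyme of haem synthesis, was lower at 12.3, 17.02 and 15.7 FPKM in KO against 69.8, 105.3 and 77.7 in WT (log2 fold change -2.40 ± 0.53 SE, adjusted p = 0.0119). Set-adjusted, Alas2 gave -1.56 (adjusted p = 0.304). Without KO 2 or without WT on WD 2 there were 2 erythroid markers lower.

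Genes called on CD with an unadjusted limma p over 0.5 on WD and no set-adjusted call numbered 248, 212 higher and 36 lower. This count took a mean of at least 5 FPKM and left out unnamed gene models. Without the other limits, 364 of the 1633 genes called on CD had such a p on WD, 283 higher and 81 lower. Of all calls on CD 77.7% were higher. The share with such a p over all tested genes is not given. None of the genes named in this paragraph passed the test of the difference between diets. The largest fall among the 248 was Rnu2-10, a U2 spliceosomal RNA without a poly(A) tail. It was listed at 0 in all 3 KO libraries, against 314, 127 and 191 FPKM in WT, with an adjusted p of 0.0055. Khk, ketohexokinase of fructose metabolism, measured 2.54, 2.91 and 3.599 FPKM in KO against 15.6, 28.7 and 21.9 in WT (log2 fold change -2.49), with -0.56 set-adjusted and 0.29 on WD. Slc19a2, a thiamine carrier, measured 1.72, 1.44 and 0.816 FPKM in KO against 13.7, 20.3 and 15.8 in WT (log2 fold change -2.92), with -0.73 set-adjusted and 0.26 on WD. Among the rises, Ppfibp1, a liprin-binding scaffold protein, measured 15.4, 12.2 and 12.6 FPKM in KO against 2.26, 3.19 and 2.12 in WT (log2 fold change 2.04 ± 0.36 SE, adjusted p = 0.00391), with 0.12 on WD. Lamtor2, a lysosomal scaffold for mTORC1, measured 34.1, 52.8 and 25.1 FPKM in KO against 6.84, 13.1 and 14.3 in WT (log2 fold change 1.62 ± 0.33 SE, adjusted p = 0.00819), with 0.07 on WD. The call of Khk ended without KO on CD 1, 2 or 3, or WT on CD 3 or 4 (adjusted p up to 0.0897), and that of Slc19a2 without KO on CD 3, or WT on CD 3 (up to 0.0652).

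A difference between the 2 diets was itself tested, as the KO effect on CD minus that on WD, and 37 genes (0.340%) passed, 13 with the larger value on CD and 24 with the larger value on WD. Besides Cux2 (3.67, adjusted p = 0.00983) and Idi1 (-3.88, adjusted p = 0.0123) they included Dhodh, dihydroorotate dehydrogenase of pyrimidine synthesis. Dhodh measured 17.3, 14.96 and 11.8 FPKM in KO against 1.79, 3.27 and 2.62 in WT (log2 fold change 2.15 ± 0.24 SE, adjusted p = 0.000151), with 1.95 (adjusted p = 0.0109) set-adjusted and -0.09 on WD (difference 2.23, adjusted p = 0.0123). Rbpms, an RNA-binding protein, measured 20.8, 19 and 21.2 FPKM in KO against 51.7, 48.3 and 52.3 in WT on CD (log2 fold change -1.28 ± 0.31 SE, adjusted p = 0.0181), with -0.40 (adjusted p = 0.485) set-adjusted and 1.44 (adjusted p = 0.00616) on WD. Its call on CD ended without KO on CD 3, or WT on CD 1, 3 or 4 (adjusted p up to 0.056). With the library set as a term 2 genes passed the test of the difference, neither of them named here, and without 1 library the count ran from 4 (without WT 3) to 1037 (without WT on WD 4), with 663 without WT on WD 3 and 754 without KO on WD 3.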

How the data were processed

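Liver RNA of 14 libraries was made with Lexogen QuantSeq 3' mRNA FWD (500 ng total RNA) and sequenced on a NovaSeq, per the labels' protocols. The deposited FPKM values come from the authors; Cufflinks and build mm10 are named in the submitters' processing notes, with no version. Of 43548 rows, 43547 were used: Yam1 holds a placeholder value in 8 libraries. Genes that reached 1 FPKM in 3 or more libraries entered the test, made with limma 3.58.1 (R 4.3.3) on log2(FPKM + 1), with group means over all 14 libraries, trended eBayes and Benjamini-Hochberg adjustment, and every adjusted p printed is from limma. Fold changes on this scale understate those of low genes. The fit was run on simulated data with no library set effect. That run cannot show how far the set affects the calls on CD. Depth is unknown, so no counting intervals are given. Alternatives were other pseudocounts, filters and scalings, a library set term, a replicate block and leaving out each library. Named genes were the largest changes called on both diets at a mean of at least 5 FPKM. The members of each list with the smallest p were added. So were the largest changes called on CD with an unadjusted limma p over 0.5 on WD, and those differing between diets. Others named are marked where they stand. The members and lists were chosen with earlier results of these data known. Same-numbered libraries did not deviate together. Promoter windows are from RefSeq, build GRCm38.p6. Some genes are not reported here.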

Additional observations from a re-analysis of the deposited data

Results flagged for a closer look

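The KO effect on CD differed from that on WD, by the limma test of the difference, for 9 of the genes named above; each value below is the log2 effect on CD minus that on WD. Chac2, a glutathione-degrading enzyme, differed by -3.45 (-2.14 on CD and 1.32 on WD, adjusted p = 0.0241). Idi1 of sterol synthesis differed by -3.88 (-2.75 and 1.13, adjusted p = 0.0123), and Manf of the endoplasmic reticulum by -3.91 (-2.19 and 1.72, adjusted p = 0.0384). Rbpms differed by -2.72 (-1.28 and 1.44, adjusted p = 0.0231) and the ribosomal protein gene Rpl8 by -1.54 (-0.99 and 0.55, adjusted p = 0.0241). These 5 genes were lower in KO on CD and had a positive effect on WD. Cux2 differed by 3.67 (4.31 and 0.64, adjusted p = 0.00983), Apoa4 by 2.46 (1.57 and -0.88, adjusted p = 0.0241), Dhodh by 2.23 (2.15 and -0.09, adjusted p = 0.0123) and Abcg5 by 1.48 (1.67 and 0.19, adjusted p = 0.0241). On CD library set and genotype cannot be told apart. With the library set as a term none of these 9 differences passed: each kept its sign, with sizes such as 3.34 for Cux2 (adjusted p = 0.304), -1.61 for Rbpms (adjusted p = 0.289), -2.77 for Idi1 (adjusted p = 0.388) and -2.37 for Manf (adjusted p = 0.784).

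In the WD groups of 4, single libraries stood apart from the rest of their group by Dixon's criterion. Chance meets it in about 1 of 20 groups. It was applied to Cul3 and to the 26 genes chosen as called on both diets, so some such cases are expected by chance. Serpina1e measured 563 FPKM in KO on WD 1, against 61.8 to 113 in the other KO libraries on WD. Tff3 was listed at 0 in WT on WD 4, against 2.23 to 2.59 FPKM in the other WT libraries on WD. Spink3 measured 0.605 FPKM in WT on WD 3 and was listed at 0 in the other WT libraries on WD. With the others at 0 any value above 0 meets the criterion, so this case carries no weight. Meig1 measured 10.7 FPKM in WT on WD 1, against 0 to 1.19 FPKM in the other WT libraries on WD. The CD groups of 3 are too small for this criterion.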

How the results depend on the processing

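The number of genes called in KO against WT on CD was 1633. It was 126 with the library set as a term and 134 with the set defined by the placeholder mark. A replicate block gave 586, although same-numbered libraries did not deviate together (correlations of -0.03 and -0.05 on CD and -0.30 to 0.16 on WD). Without 1 library the CD count ran from 590 to 2463. For genes called on both diets (302) the counts were 98 with the set term, 90 with the mark, 197 with the replicate block, 182 after quantile normalization and 169 after median centring, and 196 to 341 without 1 library. On WD (762) they were 152 in set 1 libraries alone and 457 after median centring, and 448 to 806 without 1 library. For the difference between diets (37) they were 2 with the set term, 4 with the replicate block, 3 with the mark, 24 with a pseudocount of 0.1, 21 without a filter and 184 at 5 FPKM or more, and 4 to 1037 without 1 library. Quantile normalization left 618 higher and 506 lower on CD. The log2 change of Cul3 was 0.0062 and that of B2m 0.13 with the set term, each opposite in sign to the fit without it. Hbb-bt ran from -0.35 without KO on CD replicate 2 to 1.09 without KO on CD replicate 1. The cause was not tested. Read totals are unknown, which limits what can be said of genes near 0.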
